A study of Homo sapiens with 20 samples.

Results

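The genes described here are 9 members of the human MHC class I antigen presentation pathway, HLA-B, HLA-C, HLA-E, HLA-F, B2M, TAP1, TAP2, PSMB8 and PSMB9, read by their symbols from count tables of 25411 genes. Each was found once in each of 20 RNA-seq libraries of BEAS-2B, immortalised cells of the human airway lining, and all 9 passed the filter on low counts. Class I molecules carry short peptides of proteins made inside a cell to its surface, where CD8 T cells and natural killer cells read them. The proteasome cuts the peptides, the TAP transporter moves them into the endoplasmic reticulum, and there they bind a heavy chain (an HLA gene product) held with beta-2-microglobulin. Interferons are known to raise transcription of the whole pathway in epithelial cells and to exchange the constitutive catalytic proteasome subunits for the inducible ones.

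Cells of all 7 groups were BEAS-2B grown in DMEM. The nickel groups were Ni_3D (n = 2), labelled as 3 days of nickel, Ni_3D+14D (n = 2), labelled with a further 14 days, Ni_6W (n = 2), after 6 weeks of nickel chloride, and Ni_6W+2W (n = 2), washed after it and kept for 2 weeks without nickel. Ni_clone (n = 6) holds populations that were each grown in nickel-free medium from a single colony of cells exposed for 6 weeks, so each library is 1 clone; the labels write the concentration behind them as 100 mM, a unit that the files cannot check and that may be a slip, and give none for the other groups. The controls were Control_3D (n = 4) and Control_6W (n = 2), and the nickel-free time, passage or cloning of the later groups cannot be told apart from past exposure. The labels do not say whether replicates were separate cultures, so p-values measure the spread between these libraries, which may be technical.

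Totals ran from 8609243 to 88848786 reads per library, and a member's count from 254 reads (HLA-F) to 142774 reads (HLA-C). Some libraries stood apart from their groups: Control_3D replicates 1 and 2 held 11.9 and 12.4 CPM of ZEB1 (CPM are counts scaled to the depth of the library), the repressor of epithelial genes named in the study's title, beside 1.04 and 1.76 CPM in replicates 3 and 4. The 14 nickel libraries held 7.75 to 18.2 CPM of ZEB1 and Control_6W 0.984 and 0.612 CPM, so these 2 libraries, labelled as controls, were at the level of nickel libraries for this gene. Every comparison with Control_3D rests in part on them. Values of the members without them are given beside the results of Ni_3D and, where a sign turned, among the processing alternatives. Ni_3D replicate 1 and Control_3D replicate 1 also held TFF1 (33.3 and 19.98 CPM) and ESR1 (10.7 and 3.51 CPM). These 2 genes, from a marker list for hormone-responsive breast epithelium, were at most 0.117 and 0 CPM elsewhere. The source of their reads was not tested. The epithelial keratins KRT8 and KRT18 were present throughout (at least 187 and 134 CPM), whereas the basal airway markers KRT5 and TP63 were absent or nearly so (at most 4.02 and 0.213 CPM). Markers of lymphocytes (CD3D and MS4A1) had 0 reads in all 20 libraries and PTPRC, of all leukocytes, at most 0.307 CPM.

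Of the 9 genes 8 lie in the MHC region of chromosome 6, and B2M lies on chromosome 15 (chr15:45003685-45010357, plus strand; the files' coordinates are hg19). HLA-F (chr6:29691117-29695073) and HLA-E (chr6:30457183-30461982), both on the plus strand, are followed by HLA-C (chr6:31236526-31239913) and HLA-B (chr6:31321649-31324989) on the minus strand. The processing genes lie together further on: TAP2 (chr6:32793187-32806600), PSMB8 (chr6:32808494-32812712) and TAP1 (chr6:32812986-32821748) on the minus strand and PSMB9 (chr6:32821938-32827628) on the plus strand. TAP1 and PSMB8 overlap the antisense transcript TAPSAR1, which had 2793 reads in all libraries together beside 67801 (TAP1) and 36999 (PSMB8), and HLA-F overlaps HLA-F-AS1 (1814 beside 21032 reads).

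The windows just before the transcription starts of some members hold letters of the elements through which this pathway is known to be switched on. RefSeq (GRCh38.p14) gives such a window for 8 of the 9 members. The 5 below, each 250 bases long and written along the gene, are shown because their genes separated in the data: the first 4 precede genes that were highest in the same 6-week library, and the last precedes TAP2, which was not. Capitals mark GAAA followed after any 2 bases by GAAA, or GAANTGAAA, both forms of the interferon response element, and the consensus of NF-kB, on either strand; overlapping matches are merged.
HLA-B (chr6:31357180-31357429, minus strand): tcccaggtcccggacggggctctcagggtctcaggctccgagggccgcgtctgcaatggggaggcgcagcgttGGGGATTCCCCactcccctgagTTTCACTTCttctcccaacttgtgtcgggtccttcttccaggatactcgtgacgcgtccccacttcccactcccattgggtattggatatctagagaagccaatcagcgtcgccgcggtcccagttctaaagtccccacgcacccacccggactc
HLA-C (chr6:31272093-31272342, minus strand): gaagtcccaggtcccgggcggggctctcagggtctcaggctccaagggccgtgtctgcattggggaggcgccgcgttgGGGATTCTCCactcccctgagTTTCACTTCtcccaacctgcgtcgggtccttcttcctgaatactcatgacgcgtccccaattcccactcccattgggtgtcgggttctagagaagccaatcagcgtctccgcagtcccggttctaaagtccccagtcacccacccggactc
B2M (chr15:44711267-44711516, plus strand): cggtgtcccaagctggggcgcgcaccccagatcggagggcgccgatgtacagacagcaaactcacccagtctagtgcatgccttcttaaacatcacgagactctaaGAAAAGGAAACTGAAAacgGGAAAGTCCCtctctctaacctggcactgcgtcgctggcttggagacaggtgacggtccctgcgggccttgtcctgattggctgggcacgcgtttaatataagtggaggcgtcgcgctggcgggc
TAP1 (chr6:32853705-32853954, minus strand): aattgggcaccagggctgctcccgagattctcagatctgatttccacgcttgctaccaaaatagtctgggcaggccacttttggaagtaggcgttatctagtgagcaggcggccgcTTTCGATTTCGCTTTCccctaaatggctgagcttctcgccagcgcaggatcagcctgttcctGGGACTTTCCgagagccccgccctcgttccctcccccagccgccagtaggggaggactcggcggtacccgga
TAP2 (chr6:32838740-32838989, minus strand): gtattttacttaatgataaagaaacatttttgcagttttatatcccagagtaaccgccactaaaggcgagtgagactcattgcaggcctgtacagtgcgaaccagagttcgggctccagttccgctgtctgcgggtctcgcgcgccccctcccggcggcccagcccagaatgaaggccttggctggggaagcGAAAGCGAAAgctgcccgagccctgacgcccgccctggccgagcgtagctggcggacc
The HLA-B and HLA-C windows were 89% identical in alignment, and the HLA-B and HLA-F windows 80.4%. The HLA-B window was 49.8% identical to that of TAP2, 49.5% to that of B2M and 48.5% to that of TAP1, so TAP2 did not stand apart here. GAAA followed after any 2 bases by GAAA was found before HLA-F, B2M, TAP1 and TAP2 and in 3.02% of 35116 promoter windows of the same length. GAANTGAAA was found before HLA-B and HLA-C and in 1.53% of these windows. The NF-kB consensus was found before HLA-B, HLA-C, B2M and TAP1 and in 9.96% of windows. It was not found before TAP2, nor before HLA-F, which was also highest in that 6-week library. The windows of PSMB8 and PSMB9, cut at 250 bases, held neither form of the interferon element and no NF-kB consensus, which says nothing of the bases beyond them. TAP1 and PSMB9 are transcribed away from each other, from starts 488 bases apart in this annotation, so their windows overlap at the far ends. The capitals of the TAP1 window lie between these starts but outside the PSMB9 window, so they were not counted for PSMB9. By the hg19 coordinates above, the starts (32821748 for TAP1 and 32821938 for PSMB9) are nearer to each other. These motifs were chosen with the sequences in view, and a match is a string of letters, not a shown binding site.

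Per length of transcript, by the authors' RPKM (reads scaled by transcript length and library size), the light chain and the main heavy chains were far above the processing genes. Over the 20 libraries the median level was 855 RPKM for B2M, 719 RPKM for HLA-C and 653 RPKM for HLA-B. HLA-E, which presents leader peptides of other class I molecules to natural killer cells, had a median of 92.8 RPKM, and HLA-F, another non-classical heavy chain, 24.6 RPKM. The proteasome subunits PSMB9 and PSMB8 had medians of 71.6 and 58.9 RPKM, and the transporter subunits TAP1 and TAP2 of 37.2 and 28.4 RPKM. Together the 9 genes took 0.275% (clone 5) to 0.823% (Ni_6W replicate 1) of all reads.

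HLA-F varied most among libraries, with a highest CPM 11.2 times the lowest, followed by HLA-B (5.79 times) and HLA-E (4.69 times), whereas PSMB8 varied by 1.77 times. As SD of log2 CPM this was 0.72 for HLA-F and 0.22 for PSMB8, beside a median of 0.37 over 14899 genes. Ni_6W replicate 1 was the highest of all 20 libraries for 6 members, HLA-B, HLA-C, HLA-E, HLA-F, B2M and TAP1. Clone 5 was the lowest for HLA-B, HLA-C and HLA-F.

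**Figure D1:**
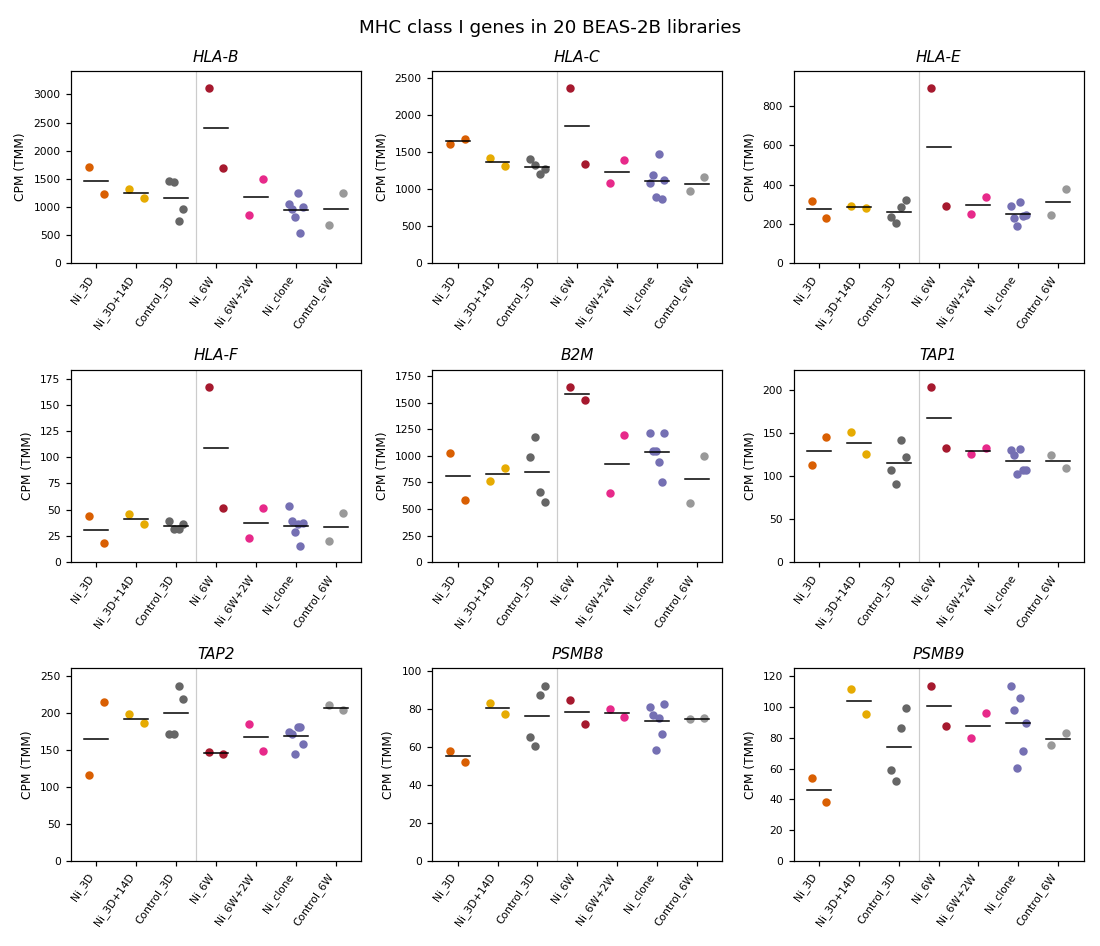
Level of each of the 9 genes in CPM (TMM-scaled, linear axis from 0); each point is 1 library and each bar a group mean, with nickel groups left of their controls. Ni_6W replicate 1 is the highest point for HLA-B (3110 CPM), HLA-C, HLA-E, HLA-F, B2M and TAP1, and both Ni_3D libraries lie low for PSMB8 and PSMB9.

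After 6 weeks of nickel the heavy chains and B2M had higher mean levels than in controls, and none passed the test. For the heavy chains 1 nickel library was well above the other, whereas both were high for B2M. In bulk RNA a few cells with very high levels and a higher level in every cell cannot be told apart. HLA-B had 3110 and 1687 CPM in Ni_6W, against 687 and 1250 CPM in Control_6W. Its group means, 2399 ± 1006 and 968 ± 398 CPM (SD, n = 2 each), gave a log2 fold change of 1.31 (SE 0.42; edgeR adjusted p = 0.0834). Both Ni_6W libraries lay above both controls. Ni_3D was next in order of group means, and its libraries, at 1222 and 1718 CPM, reached into the Ni_6W range.

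HLA-C, the other classical heavy chain among the members, had 2365 and 1340 CPM in Ni_6W, against 982 and 1171 CPM in Control_6W. The log2 fold change was 0.79 (SE 0.25; edgeR adjusted p = 0.0834), and the groups did not overlap, although Ni_6W replicate 2 was within the range of Control_3D (1203 to 1415 CPM). HLA-E had 890 and 290 CPM in Ni_6W, against 243 and 379 CPM in Control_6W, a log2 fold change of 0.93 (SE 0.42; edgeR adjusted p = 0.174). Here replicate 2 lay between the controls, so the higher mean was that of a single library.

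HLA-F had 167 and 51.3 CPM in Ni_6W, against 19.95 and 47.0 CPM in Control_6W, the largest log2 fold change among the 9 members in this comparison at 1.72 (SE 0.58; edgeR adjusted p = 0.0978). Replicate 2 was barely above the higher control. An antisense transcript, HLA-F-AS1, overlaps this gene, and where counting ignores strand its reads cannot be told apart from those of HLA-F. B2M, the light chain shared by every class I heavy chain, differed in that both nickel libraries were high, at 1648 and 1527 CPM in Ni_6W, against 555 and 1003 CPM in Control_6W. Its log2 fold change was 1.03 (SE 0.41; edgeR adjusted p = 0.134), and no other library of the series exceeded 1220 CPM.

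The transporter genes differed from controls in opposite directions in Ni_6W, and neither passed the test. TAP1 had 204 and 132 CPM in Ni_6W, against 125 and 110 CPM in Control_6W (log2 fold change 0.52, SE 0.25; edgeR adjusted p = 0.205). TAP2, whose product pairs with that of TAP1 to form the transporter, had 147 and 145 CPM in Ni_6W, against 211 and 204 CPM in Control_6W. This difference, -0.51 on the log2 scale (SE 0.26; edgeR adjusted p = 0.233), had nickel libraries that agreed closely and lay below both controls.

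The inducible proteasome genes were the closest of the members to controls after 6 weeks. PSMB8, which takes the place of the constitutive subunit PSMB5, had 84.7 and 71.8 CPM in Ni_6W, against 74.6 and 74.9 CPM in Control_6W, with a log2 fold change of 0.07 (SE 0.22; edgeR adjusted p = 0.874). PSMB9, which takes the place of PSMB6, had 113 and 87.5 CPM in Ni_6W, against 75.5 and 82.8 CPM in Control_6W (0.35, SE 0.29; edgeR adjusted p = 0.475). The PSMB9 groups did not overlap and those of PSMB8 did.

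By edgeR 0 of the 9 members passed an adjusted p of 0.05 in Ni_6W, beside 2.47% of 14927 genes (187 higher, 181 lower). At an unadjusted p under 0.05 stood 5 members (HLA-B, HLA-C, HLA-E, HLA-F and B2M), all higher, beside 26.6% of all genes in either direction. DESeq2 called 3 members, HLA-B, HLA-C and HLA-F (adjusted p = 0.0197, 0.0249 and 0.0223), beside 13.9% of all genes. Both nickel libraries lay above both controls for 6 members and below them for 1, beside 24.5% and 22.5% of genes. The median log2 fold change of the 9 was 0.79, beside 0.03 over all genes.

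Leaving out a Ni_6W library moved most of these sizes. Without replicate 1 the log2 fold changes were 0.79 (HLA-B), 0.31 (HLA-C), -0.11 (HLA-E), 0.61 (HLA-F) and 0.17 (TAP1), and 0 members were called by edgeR. B2M at 0.96 and TAP2 at -0.52 stayed near their full values. The controls moved the sizes too: without Control_6W replicate 1 the log2 fold changes were 0.94 (HLA-B), 1.21 (HLA-F) and 0.66 (B2M), and without replicate 2 they were 1.79, 2.44 and 1.50, none of them called. Without Ni_6W replicate 2 the log2 fold changes were 1.67 (HLA-B), 1.12 (HLA-C), 1.50 (HLA-E) and 2.31 (HLA-F). In such fits a lone library was assumed to vary like the other groups. Of 8 immune cell markers 6, PTPRC among them, had 0 reads in both Ni_6W libraries. The summed level of the list, which there is CD14 and CD68 alone, was 117 CPM in replicate 1 and 42.1 CPM in replicate 2, against 45.9 to 75.7 CPM in Control_6W. The summed level of 8 bronchial epithelial markers was 522 to 782 CPM in Ni_6W, against 907 to 1412 CPM in Control_6W, without overlap, and the part of either list in these values was not tested.

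**Figure D2:**
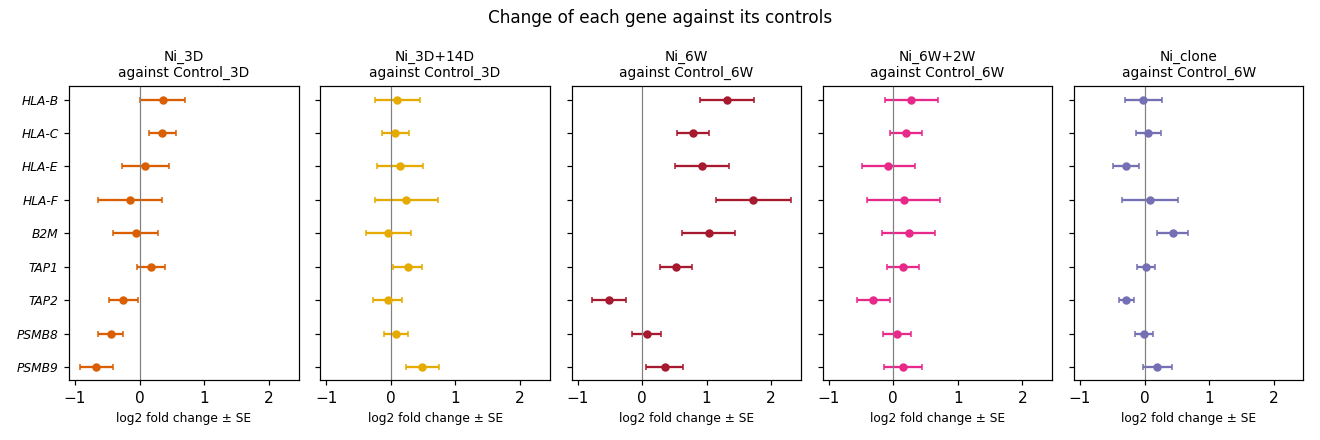
Log2 fold change of each gene against its control group from edgeR, with bars of 1 SE and a line at 0; panels run by comparison and share 1 axis. In Ni_6W the heavy chains and B2M lie between 0.79 and 1.72 and TAP2 at -0.51, whereas in Ni_6W+2W all 9 genes lie between -0.31 and 0.28.

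After 2 weeks without nickel the members' means were near those of the controls. HLA-B had 855 and 1489 CPM in Ni_6W+2W, against 687 and 1250 CPM in Control_6W. B2M had 646 and 1195 CPM in Ni_6W+2W, against 555 and 1003 CPM in Control_6W. In both groups the library numbered 2 was the higher for these genes, and the ranges overlapped. Log2 fold changes of the 9 members ran from -0.31 (TAP2) to 0.28 (HLA-B), with edgeR adjusted p of at least 0.646. By edgeR 0 members and 0% of 14927 genes were called, and DESeq2 called 0 members and 2.2% of genes. Unadjusted p-values were under 0.05 for 0 members and 13.1% of genes. The groups did not overlap for TAP1 and PSMB8, which were higher, and TAP2, which was lower, beside 23.3% and 20.8% of genes.

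Set directly against Ni_6W, the washed cells had lower heavy chain means. HLA-F had 23.2 and 51.4 CPM in Ni_6W+2W, against 167 and 51.3 CPM in Ni_6W, a log2 difference of -1.56, and HLA-B differed by -1.03, HLA-E by -1.01 and B2M by -0.79. None passed the test (edgeR adjusted p of at least 0.733), and 0 members were called beside 0% of genes. Lower at an unadjusted p under 0.05 were 4 (HLA-B, HLA-C, HLA-E and HLA-F), beside 6.59% of genes in either direction. DESeq2 called 0 members beside 0.0469% of genes. Only HLA-B and B2M were lower and TAP2 higher with no overlap of the libraries, beside 12.9% and 13% of genes, whereas HLA-E in the washed cells (250 and 338 CPM) lay on both sides of Ni_6W replicate 2 (290 CPM). Without Ni_6W replicate 2 edgeR called HLA-C, HLA-E and HLA-F at -0.92, -1.58 and -2.15.

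In the 6 clones, grown from single colonies, most class I genes spread over the range of the controls or beyond it on both sides. HLA-B ran from 538 CPM (clone 5) over a median of 989 to 1241 CPM (clone 4), against 687 and 1250 CPM in Control_6W. HLA-F ran from 14.9 CPM (clone 5) over a median of 36.4 to 53.1 CPM (clone 1), against 19.95 and 47.0 CPM in Control_6W. Clone 5 lay below both controls for HLA-B and HLA-F. The other 5 clones lay above the lower control for both genes, and clone 1 alone exceeded the higher one, for HLA-F. HLA-C ran from 870 CPM over a median of 1103 to 1482 CPM, against 982 and 1171 CPM in Control_6W, and HLA-E from 190 CPM over a median of 242 to 309 CPM, against 243 and 379 CPM in Control_6W.

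B2M had a median of 1044 CPM in the clones, with a range of 756 to 1220 CPM, against 555 and 1003 CPM in Control_6W, a log2 fold change of 0.44 (SE 0.24; edgeR adjusted p = 0.285). TAP2 was the only member whose libraries did not overlap, with 145 to 182 CPM and a median of 173 CPM in the clones, against 204 and 211 CPM in Control_6W. Its log2 fold change was -0.28 (SE 0.12; edgeR adjusted p = 0.175). TAP1, with 103 to 132 CPM in the clones against 110 and 125 CPM in Control_6W, had a log2 fold change of 0.02, and PSMB8 one of -0.01. PSMB9 ran from 60.7 to 114 CPM in the clones, against 75.5 and 82.8 CPM in Control_6W (0.20 on the log2 scale), with clones 3 and 5 below both controls and 4 clones above.

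Against Control_6W, edgeR called 0 members of the clones beside 5.26% of 14172 genes, and DESeq2 0 beside 13.9%. TAP2 was the single member at an unadjusted p under 0.05, beside 25.2% of genes, and genes without overlap made up 11.8% (higher) and 12.5% (lower). Against Ni_6W+2W, edgeR called 0 members beside 0.028% of 14273 genes, and DESeq2 0 beside 0.427%; an unadjusted p under 0.05 was found for 0 members and 6.61% of genes. In that comparison the log2 differences ran from -0.33 (HLA-B) to 0.16 (B2M), and no member's libraries stood apart, beside 4.2% of genes higher and 4.43% lower.

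After 3 days of nickel the inducible proteasome genes had lower means than in controls, and neither passed the test. PSMB9 had 54.1 and 38.3 CPM in Ni_3D, against 59.4, 51.8, 86.1 and 99.6 CPM in Control_3D replicates 1 to 4. The lower nickel library was below every control and the higher one was not. The log2 fold change was -0.67 (SE 0.26; edgeR adjusted p = 0.14). PSMB8 had 58.0 and 51.9 CPM in Ni_3D, against 65.2, 60.1, 87.0 and 91.9 CPM in Control_3D, so that both nickel libraries lay below all 4 controls (log2 fold change -0.45, SE 0.19; edgeR adjusted p = 0.167).

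The 4 controls formed pairs for both genes, replicates 3 and 4 being the higher. Without replicates 1 and 2, those with ZEB1 at 11.9 and 12.4 CPM, PSMB9 and PSMB8 were called lower by edgeR (adjusted p = 0.027 and 0.039), PSMB8 at a log2 fold change of -0.70. Without replicates 3 and 4 the log2 fold changes were -0.27 (PSMB9) and -0.19 (PSMB8; edgeR adjusted p = 0.563 and 0.608), so the size of both differences depended on which controls were used. The summed level of 7 fibroblast markers, of which the collagen gene COL1A1 made up 88% to 96.7% in every library, was 575 to 1536 CPM in Ni_3D, against 2035 to 4571 CPM in Control_3D, and its part in these values was not tested.

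Among the heavy chains HLA-C had 1612 and 1684 CPM in Ni_3D, against 1415, 1334, 1203 and 1274 CPM in Control_3D. Both nickel libraries lay above all controls, with a log2 fold change of 0.35 (SE 0.21; edgeR adjusted p = 0.329). HLA-B had 1718 and 1222 CPM in Ni_3D, against 1457, 1443, 756 and 969 CPM in Control_3D (0.36, SE 0.35; edgeR adjusted p = 0.556), and these ranges overlapped. This value was 0.77 against replicates 3 and 4 alone and 0.02 against replicates 1 and 2 alone, neither of them called. HLA-E, HLA-F, B2M, TAP1 and TAP2 had log2 fold changes between -0.25 (TAP2) and 0.18 (TAP1), with overlapping libraries in every case. B2M, at -0.06, was at 0.39 without Control_3D replicates 1 and 2, and HLA-E and TAP1 also changed sign without them (-0.14 and -0.03). HLA-C, HLA-F and TAP2 kept their sign without these libraries (0.41, -0.12 and -0.46).

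By edgeR 0 members were called in Ni_3D, beside 4.33% of 14927 genes (422 higher, 225 lower), and DESeq2 called 0 beside 12.6%. PSMB8 and PSMB9 were the 2 members at an unadjusted p under 0.05, beside 24.3% of genes. One member was higher and 1 lower without overlap, beside 19.8% and 18.8% of genes. The median log2 fold change of the 9 members was -0.06, beside 0.03 over all genes.

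In the cells kept for a further 14 days the inducible proteasome genes had higher means than after 3 days, PSMB9 at the upper end of the controls and PSMB8 within their range, and neither passed the test. PSMB9 had 112 and 95.7 CPM in Ni_3D+14D, against 54.1 and 38.3 CPM in Ni_3D, a log2 difference of 1.15 (SE 0.30; edgeR adjusted p = 0.127). PSMB8 had 82.9 and 77.3 CPM in Ni_3D+14D, against 58.0 and 51.9 CPM in Ni_3D, a log2 difference of 0.53 (SE 0.22; edgeR adjusted p = 0.34). For both genes the later libraries lay above both of the earlier ones. By edgeR 0 members were called in this comparison beside 0.255% of genes, and these 2 stood at an unadjusted p under 0.05 beside 12.6% of genes. DESeq2 called PSMB9 (1.16, adjusted p = 0.0137) beside 2.96% of genes. Without overlap, 2 members were higher and 1, HLA-C, lower, beside 27.5% and 26.9% of genes.

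Against Control_3D, the 9 members of Ni_3D+14D had log2 fold changes from -0.05 (TAP2) to 0.49 (PSMB9), with edgeR adjusted p of at least 0.979. PSMB8 had 0.08 and, without Control_3D replicates 1 and 2, -0.16, and PSMB9 had 0.16 without them. By edgeR 0 were called beside 0% of genes, and 0 had an unadjusted p under 0.05 beside 4.11%. DESeq2 called 0 beside 0.107%. No member's libraries stood apart from the controls, beside 11.2% of genes higher and 10.8% lower.

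Between the controls of the long and the short experiment, log2 differences of the members (Control_6W over Control_3D) ran from -0.30 (HLA-C) to 0.24 (HLA-E). By edgeR 0 were called beside 0% of genes, and 0 had an unadjusted p under 0.05 beside 8.31%. DESeq2 called 0 beside 0.328%. HLA-C alone had libraries without overlap, lower in Control_6W, beside 8.88% of genes higher and 7.56% lower. The long response minus the short one, Ni_6W over Control_6W minus Ni_3D over Control_3D, was 1.86 for HLA-F (SE 0.76; edgeR adjusted p = 0.407) and 1.01 for PSMB9 (SE 0.39; edgeR adjusted p = 0.38) on the log2 scale. These 2 stood at an unadjusted p under 0.05, beside 10.9% of genes, and 0 members were called by edgeR or DESeq2, beside 0% and 1.27% of genes.

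**Figure D3:**
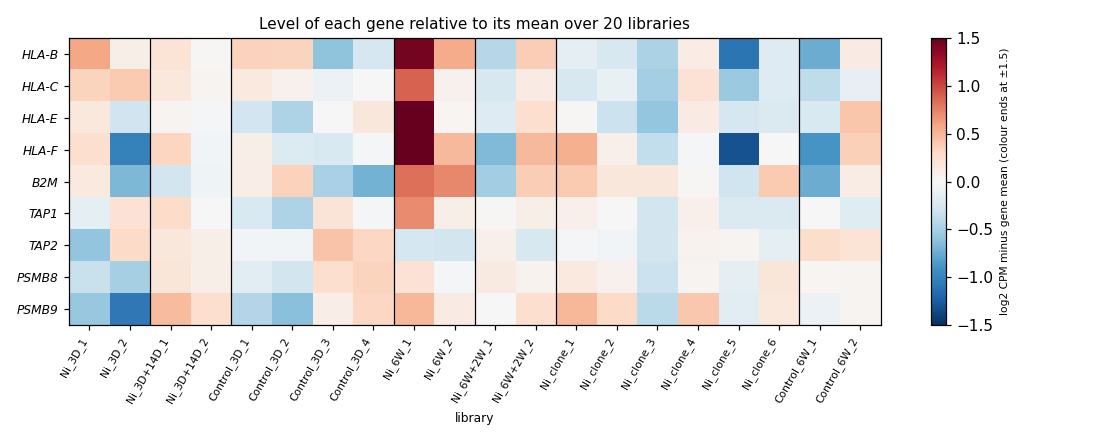
Log2 CPM of each gene (rows) in each of 20 libraries (columns) minus that gene's mean over the libraries; red is above and blue below the mean, colours end at 1.5 and lines divide the groups. The red block is Ni_6W replicate 1 from HLA-B to TAP1, TAP2 in the same column is pale blue, and Ni_3D replicate 2 is blue for PSMB8 and PSMB9.

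Members of the same complex did not all vary together over the 20 libraries. Among genes whose products join in the same complex, the correlation of log2 CPM was 0.89 for PSMB8 with PSMB9 and 0.11 for TAP1 with TAP2. B2M with the heavy chains had 0.65 (HLA-B), 0.32 (HLA-C), 0.38 (HLA-E) and 0.73 (HLA-F). Between heavy chains it was 0.89 for HLA-B with HLA-C and 0.82 for HLA-B with HLA-F. Of all pairs of members B2M and TAP2 had the lowest, -0.74, and TAP2 with the mean of the other 8 members had -0.27. Each of these is a description over libraries that share depth and groups. Ni_6W replicate 1 was the highest for HLA-B, HLA-C, HLA-E, HLA-F, B2M and TAP1 alike. The correlations between members were not worked out without it, so they may rest in part on this library. HLA-B, HLA-C and HLA-F are similar in sequence, so reads can be split between them by the authors' counting. HLA-B and HLA-C are also polymorphic, so their levels depend on how well the cells' alleles match the reference.

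Ratios within a library do not depend on its scaling. The ratio of PSMB9 to PSMB6, an inducible catalytic subunit and its constitutive counterpart, was 0.153 to 0.217 in the 6 control libraries, and 13 of the 14 nickel libraries lay above that range. It was 0.257 and 0.134 in Ni_3D, 0.371 and 0.315 in Ni_3D+14D, against 0.159 to 0.193 in Control_3D. In the long experiment it was 0.456 and 0.356 (Ni_6W), 0.261 and 0.416 (Ni_6W+2W) and 0.217 to 0.395 in the clones, against 0.153 and 0.217 in Control_6W. The clones' lowest ratio (0.2174, clone 3) was just above the highest control ratio (0.2169).

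PSMB6 itself had lower means in the nickel groups than in their controls, whether the exposure was present or past. It had 236 ± 20.3 CPM in the clones (SD, n = 6) and 360 ± 65.8 CPM in Control_6W (SD, n = 2), and was called lower there (log2 fold change -0.60, SE 0.14; edgeR adjusted p = 0.0371). The call was lost without either Control_6W library (edgeR adjusted p = 0.134 and 0.117) without clone 2, 3, 4 or 6 (edgeR adjusted p from 0.0572 to 0.0772), and with all 20 libraries in 1 fit (edgeR adjusted p = 0.0617). In Ni_6W and Ni_3D its log2 fold changes were -0.83 and -0.72 (edgeR adjusted p = 0.0825 and 0.084). For PSMB6 too the Control_3D libraries formed pairs, with 279 and 269 CPM in replicates 1 and 2 and 392 and 424 CPM in replicates 3 and 4. Ni_3D had 173 and 236 CPM, so the size of this difference also depended on the controls used. PSMB8 over PSMB5 showed less separation: it was 0.757 and 0.664 in Ni_6W, against 0.445 and 0.565 in Control_6W, but 0.457 to 0.75 in the clones, and 7 of the 14 nickel libraries lay above the 6 controls (0.408 to 0.588). For the third pair, PSMB10 over PSMB7, 1 of the 14 did.

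TAP1 over TAP2 was 1.01 to 1.2 in the 6 controls, and 13 of the 14 nickel libraries lay above this, clone 5 (1.09) being within it. The ratio was 1.85 and 1.3 in Ni_3D and 1.42 and 1.29 in Ni_3D+14D, against 1.01 to 1.2 in Control_3D. In the long experiment it was 2.64 and 1.72 (Ni_6W), 1.26 and 1.7 (Ni_6W+2W) and 1.09 to 1.42 in the clones, against 1.13 and 1.01 in Control_6W. HLA-B over HLA-C lay above all 6 controls in 2 of the 14 nickel libraries, and HLA-B over B2M in 3. How often other pairs of genes separate in this way was not worked out, so these counts have no share beside them. All these ratios were looked at after the levels were known and were not tested.

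**Figure D4:**
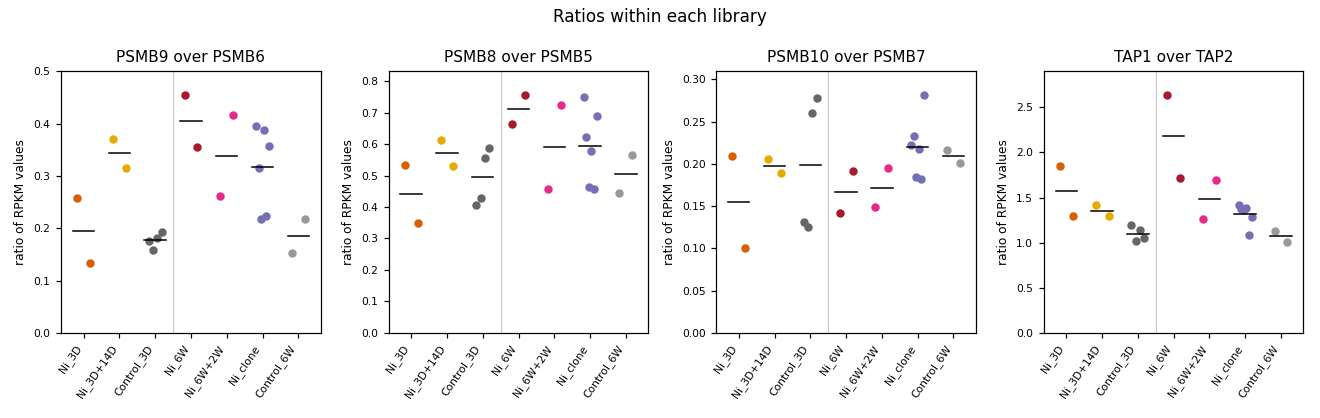
Ratio of 2 genes' RPKM within each library, linear axes from 0; each point is 1 library, bars are group means and nickel groups stand left of their controls. For PSMB9 over PSMB6 the 6 controls lie between 0.153 and 0.217 and for TAP1 over TAP2 between 1.01 and 1.2, each below 13 of the 14 nickel libraries.

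The rest of the pathway was read from 8 further lists. Of 12 genes of peptide loading and trimming, 0 were called by edgeR in any of the 10 comparisons. TAPBP, the tapasin that bridges TAP and the heavy chain, had log2 fold changes of -0.15 (Ni_3D), 0.24 (Ni_6W) and -0.01 (clones) against its controls. Of 5 further inducible proteasome and activator genes, PSME3, a subunit of the nuclear proteasome activator, fell in Ni_6W to 129 ± 34.7 CPM, against 287 ± 13.8 CPM in Control_6W (SD, n = 2 each; log2 fold change -1.16, SE 0.25; edgeR adjusted p = 0.0497). That was 1 call among 5 genes, beside 2.47% of all genes called in either direction. All 5 had negative values in that comparison, beside 47.7% of all genes, and their median was -0.25. In Ni_3D and the clones 0 of the list were called, beside 4.33% and 5.26% of all genes.

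Among 28 regulators, 1 rose and 0 fell by edgeR in each of Ni_3D, Ni_6W and the clones against their controls, a share near that of all genes called in either direction (4.33%, 2.47% and 5.26%). In Ni_6W it was STAT2, a transcription factor of the type I interferon response, at 210 ± 42.1 CPM, against 77.7 ± 17.6 CPM in Control_6W (SD, n = 2 each; log2 fold change 1.43, SE 0.34; edgeR adjusted p = 0.0497). Both Ni_6W calls, PSME3 and STAT2, were lost without Ni_6W replicate 1 or without either Control_6W library (edgeR adjusted p from 0.0604 to 0.255). In Ni_3D the called regulator was NFKB2, of the NF-kB family (log2 fold change 1.29, edgeR adjusted p = 0.0291), and in the clones SOCS1, which inhibits interferon signalling (1.63, edgeR adjusted p = 0.0217). NFKB2 was not called without Control_3D replicate 2 or 4 or Ni_3D replicate 2 (edgeR adjusted p from 0.0532 to 0.22), nor SOCS1 without Control_6W replicate 2 (edgeR adjusted p = 0.191). NLRC5, the transactivator known to act on class I promoters, had -0.63 in Ni_3D (edgeR adjusted p = 0.12), 0.15 in Ni_6W and 0.41 in the clones, none of which passed. IRF1, a transcription factor of the interferon response, had 0.31, -0.30 and 0.06 in the same groups, and none of these passed either.

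Of 32 interferon-stimulated genes OAS1 and OAS2, antiviral enzymes, fell in Ni_3D (log2 fold change -2.44 and -3.32; edgeR adjusted p = 0.0463 and 0.0289), beside 4.33% of all genes called in either direction. Negative values were found for 31 of the 32, beside 48.2% of all genes. OAS1 lost its call without any library except Control_3D replicate 1 and with no filter on low counts (edgeR adjusted p = 0.0576), and OAS2 without Control_3D replicate 2 or either Ni_3D library (edgeR adjusted p from 0.0519 to 0.236). The summed level of this list was 767 to 971 CPM in Ni_3D, against 1196 to 2145 CPM in Control_3D, where replicate 3 was the highest. In Ni_3D the means of PSMB8 and PSMB9 were lower than in controls too, whereas those of HLA-B and HLA-C were higher. A link of the list with these genes was not tested. In Ni_6W the list summed to 1689 and 1979 CPM, against 1215 and 1825 CPM in Control_6W, with 0 of 32 called. LRP1, the endocytic receptor that binds calreticulin, rose in Ni_3D (1.06, edgeR adjusted p = 0.0456) and in the clones (0.82, edgeR adjusted p = 0.0437). It was the single called gene of 6 receptors, of which 3 were tested, beside 4.33% and 5.26% of all genes called in either direction. Leaving out any 1 library ended the call in Ni_3D, and leaving out either control or clone 2, 3, 4 or 6 that in the clones (edgeR adjusted p from 0.0518 to 0.328), as did all 20 libraries in 1 fit (edgeR adjusted p = 0.0812). Of 11 further heavy chain-like genes 10 were tested, and of 9 class II genes 5 in fits with clones and 7 otherwise. Among these and 3 constitutive proteasome subunits, PSMB6 in the clones was the only call against a control. The class II list summed to 15.4 to 60 CPM.

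The genes whose levels followed the members most closely over the 20 libraries were HDAC5, RBP7, RRAS, EML2, IL15RA, ADAMTSL4, SPIDR and AKR1A1. Their Pearson correlations with the mean of the members' standardised log2 CPM ran from 0.893 (HDAC5) to 0.856 (AKR1A1), the 8 highest of 14890 genes. All 8 were highest in Ni_6W replicate 1. Over the 19 other libraries, HDAC5 (0.818), SPIDR (0.818) and ADAMTSL4 (0.804) stayed among the 8 highest, whereas AKR1A1 (0.650) was in place 104.

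The authors' deposited tables list some members past their thresholds, and their short-experiment control levels were averages over Control_3D replicates 3 and 4 for all 9 members, without replicates 1 and 2. The Ni_3D means in the authors' deposited table are not those of the 2 Ni_3D libraries either: PSMB8, at 34.4 RPKM there, had 45.4 and 38.2 RPKM in these libraries. The authors' deposited table for Ni_3D gives PSMB9 at 31.4 RPKM against 77.4 RPKM in the control, a log2 ratio of -0.94 with an adjusted p of 0.0012. For PSMB8 the same authors' deposited table gives 34.4 RPKM against 68.0 RPKM, a log2 ratio of -0.67 with an adjusted p of 0.00576. It gives HLA-B at 747 RPKM against 479.5 RPKM, with a log2 ratio of 0.73 and an adjusted p of 0.0157 in the authors' deposited table. The mean of the 4 Control_3D libraries was 641 RPKM for HLA-B and 61.8 RPKM for PSMB9. In the authors' deposited table for Ni_3D+14D, HLA-B (0.50, adjusted p = 0.00327) and B2M (0.41, adjusted p = 0.0144) are past 0.05. In the authors' deposited table for Ni_6W, unadjusted p-values are 0.0031 for HLA-B, 0.00227 for HLA-F and 0.0106 for B2M, at log2 ratios of 1.12, 1.35 and 0.90.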

How the data were processed

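Total RNA of BEAS-2B cells (RNeasy, TruSeq RNA kit, per the labels' protocols) was sequenced in 20 libraries. The authors deposited raw read counts per RefSeq gene and, per the file headers, an RPKM value beside each. Their comparison tables hold mean RPKM, log2 ratios, p-values and, in those of the 6-week exposure, a signed test score, as deposited by the authors. In those tables the adjusted column is the normal p-value of the score, without adjustment. According to the submitters' processing notes the tools were STAR 2.4, DESeq2 and DESeq, and the builds hg19 and GRCh37. How reads were counted, and whether by strand, is not given in the sources used here.

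Counts were tested with edgeR 4.0.16 in R 4.3.3 (TMM, filterByExpr with a minimum count of 10 and total of 15, robust quasi-likelihood F test). The 14 non-clone libraries shared 1 fit, with 14927 genes tested. Clones were fitted with Control_6W (14172 genes) or Ni_6W+2W (14273 genes). p-values were Benjamini-Hochberg adjusted over all genes of a comparison, and genes under 0.05 were called. SE is the log2 fold change over the square root of F. The biological coefficient of variation was 29.7% in the joint fit. CPM used TMM factors over all 20 libraries. Totals ran from 8609243 to 88848786 reads, so counting error was small for the members (at least 254 reads).

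All 9 members were tested in every comparison and are given there by value or within a range. From each further list the called genes were named, at most 4, with PSMB5, PSMB6, PSMB7, NLRC5, IRF1 and TAPBP in any case (1 further gene of this rule is not reported here), and the 8 genes most like the members. TFF1, ESR1 and ZEB1 were named from earlier results. The members, lists and tests were chosen with earlier results of these data known. Alternatives were RLE size factors, DESeq2 1.42.0, no filter, all 20 libraries in 1 fit, the replicate number as a block, and leaving out libraries singly, Control_3D in pairs, or the pair with TFF1. The test was tried on simulated counts. Promoter windows are from RefSeq (GRCh38.p14); HLA-E was not matched.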

Additional observations from a re-analysis of the deposited data

Results flagged for a closer look

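In clone 4 the ratio of HLA-B to B2M (RPKM) was 0.826, far from the other 5 clones, which lay between 0.446 and 0.584. The gap to the nearest clone was 0.637 of the group's whole range. HLA-B was the highest of the clones there (1241 CPM) and B2M the lowest but for clone 5 (943 CPM). In Control_6W the ratio was 0.777 and 0.783. Of 30 groups of values looked at for such a library this was the single one, and chance alone flags about 1 in 20.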

How the results depend on the processing

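With 2 libraries in most groups, SEs of the heavy chains in Ni_6W were 0.25 to 0.58 on the log2 scale, and a member that missed the threshold is not shown to be unaltered. By edgeR 0 members were called in each of the 10 comparisons with RLE size factors and with no filter, and with the replicate block in each of the 8 without clones. DESeq2 called 3 in Ni_6W against Control_6W and 1 in Ni_3D+14D against Ni_3D, the joint fit of all 20 libraries called 1 (HLA-B, Ni_6W), and leaving out Control_3D libraries 1 and 2 called 2 (PSMB8 and PSMB9, Ni_3D). Leaving out 1 library gave 0 to 4 members in Ni_6W against Control_6W and 0 to 3 in Ni_6W+2W against Ni_6W, the highest in both without Ni_6W replicate 2. Same-numbered samples of 2 groups correlated between -0.051 and 0.349 in their deviations, with at most 2 pairs in a comparison, so pairing by number was not established, and the replicate block gave 92 genes called in Ni_3D, 761 in Ni_6W, 128 in Ni_6W+2W, 281 between the controls and 70 for long minus short; in Ni_3D it ended the calls of NFKB2, OAS1, OAS2 and LRP1 (edgeR adjusted p = 0.0572, 0.162, 0.0837 and 0.211), and PSMB9 and PSMB8 there had -0.27 and -0.18. Leaving out Control_3D libraries 1 and 2 ended the Ni_3D calls of NFKB2 and LRP1, leaving out 3 and 4 those of OAS1, OAS2 and LRP1, and leaving out the 2 libraries with TFF1 all 4 (edgeR adjusted p from 0.0572 to 0.294). All genes called by edgeR and DESeq2 were 647 and 1880 (Ni_3D), 0 and 16 (Ni_3D+14D), 38 and 442 (Ni_3D+14D against Ni_3D), 368 and 2070 (Ni_6W), 0 and 328 (Ni_6W+2W), 0 and 7 (Ni_6W+2W against Ni_6W), 746 and 1970 (clones), 4 and 61 (clones against Ni_6W+2W), 0 and 49 (controls) and 0 and 190 (long minus short). All 20 libraries in 1 fit gave 1684 (Ni_3D), 152 (Ni_3D+14D against Ni_3D), 1812 (Ni_6W), 464 (clones), 0 (clones against Ni_6W+2W) and 8 (long minus short). No filter gave 59 (Ni_3D+14D against Ni_3D), 7 (clones against Ni_6W+2W), 1 (controls) and 10 (long minus short). Without Control_3D libraries 1 and 2 there were 1174 (Ni_3D) and 112 (Ni_3D+14D), without 3 and 4 there were 121 (Ni_3D), 301 (controls) and 101 (long minus short), and without the 2 libraries with TFF1 there were 75 (Ni_3D), 16 (Ni_3D+14D against Ni_3D) and 1 (long minus short). Leaving out single libraries gave 65 to 653 (Ni_3D), 0 to 34 (Ni_3D+14D against Ni_3D), 0 to 2871 (Ni_6W), 0 to 117 (Ni_6W+2W), 0 to 1150 (Ni_6W+2W against Ni_6W), 6 to 1504 (clones), 2 to 6 (clones against Ni_6W+2W), 0 to 134 (controls) and 0 to 302 (long minus short).

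Of 1089 alternative log2 values of the members, 966 kept their direction and side of the threshold, 14 moved past it and 109 turned in sign, with adjusted p over 0.05 in each case; 50 of the 90 values turned at least once, and the cause was not tested. The values that turned were as follows. Without Control_3D libraries 1 and 2 together, it was HLA-E -0.14, B2M 0.39, TAP1 -0.03 (Ni_3D against Control_3D), HLA-E -0.08, B2M 0.42, PSMB8 -0.16 (Ni_3D+14D against Control_3D), HLA-B 0.17, B2M 0.34, TAP1 -0.18, TAP2 -0.14, PSMB9 -0.23 (Control_6W against Control_3D). Without the 2 libraries with TFF1 and ESR1 reads, it was HLA-E -0.22, TAP2 0.04 (Ni_3D against Control_3D), B2M 0.04 (Ni_3D+14D against Control_3D), HLA-B 0.03, TAP1 -0.07, TAP2 -0.15 (Ni_3D+14D against Ni_3D), HLA-F 0.02, TAP1 -0.02, TAP2 -0.01 (Control_6W against Control_3D). With the replicate block, it was HLA-B -0.23, HLA-C -0.01, TAP2 0.16 (Ni_3D+14D against Control_3D), B2M -0.01 (Ni_3D+14D against Ni_3D), PSMB8 0.23 (Control_6W against Control_3D). Without Control_3D libraries 3 and 4 together, it was HLA-B -0.23, HLA-C -0.01, TAP2 0.16 (Ni_3D+14D against Control_3D), PSMB8 0.25 (Control_6W against Control_3D). With no filter on low counts, it was PSMB8 0.02 (Ni_6W+2W against Ni_6W), TAP2 -0.01 (Ni_clone against Ni_6W+2W). Among ranges over single libraries left out, 48 crossed 0. In Ni_3D against Control_3D these were HLA-E -0.17 to 0.28, HLA-F -0.93 to 0.33, B2M -0.55 to 0.27, TAP1 -0.03 to 0.33 and TAP2 -0.78 to 0.10. In Ni_3D+14D against Control_3D these were HLA-B -0.06 to 0.24, B2M -0.19 to 0.16, TAP2 -0.12 to 0.03 and PSMB8 -0.02 to 0.18. In Ni_3D+14D against Ni_3D these were HLA-B -0.46 to 0.03, HLA-E -0.14 to 0.31, HLA-F -0.09 to 1.17, B2M -0.31 to 0.51, TAP1 -0.07 to 0.29 and TAP2 -0.15 to 0.73. In Ni_6W against Control_6W these were HLA-E -0.11 to 1.50 and PSMB8 -0.07 to 0.16. In Ni_6W+2W against Control_6W these were HLA-B -0.17 to 0.76, HLA-E -0.36 to 0.27, HLA-F -0.52 to 0.89 and B2M -0.26 to 0.72. In Ni_6W+2W against Ni_6W these were HLA-E -1.58 to 0.03, PSMB8 -0.10 to 0.13 and PSMB9 -0.35 to 0.02. In Ni_clone against Control_6W these were HLA-B -0.39 to 0.45, HLA-C -0.06 to 0.18, HLA-E -0.57 to 0.04, HLA-F -0.41 to 0.80, TAP1 -0.08 to 0.13 and PSMB8 -0.04 to 0.05. In Ni_clone against Ni_6W+2W these were HLA-B -0.68 to 0.13, HLA-C -0.34 to 0.03, HLA-F -0.58 to 0.58, B2M -0.22 to 0.68, TAP2 -0.14 to 0.17 and PSMB9 -0.11 to 0.16. In Control_6W against Control_3D these were HLA-B -0.75 to 0.10, HLA-E -0.10 to 0.52, HLA-F -0.80 to 0.43, B2M -0.62 to 0.22, TAP1 -0.09 to 0.13, TAP2 -0.02 to 0.14, PSMB8 -0.14 to 0.08 and PSMB9 -0.06 to 0.27. In long minus short response these were HLA-C -0.04 to 0.79, HLA-E -0.20 to 1.43, TAP1 -0.01 to 0.62 and TAP2 -0.61 to 0.27.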
